A study of Mus musculus with 16 samples.

Results

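Long noncoding RNAs are transcripts without a long open reading frame. Some act at the locus where they are made, some bind protein complexes in the nucleus, and some serve mainly as precursors of small RNAs that are cut from their introns or exons. Small nucleolar RNAs (snoRNAs), which guide chemical modification of ribosomal RNA, are released from introns of host genes, while microRNAs are cut from hairpins. In the brain, long noncoding RNAs mark imprinted domains, neural progenitors and interneuron lineages, and many share a start region with, or lie opposite, a coding gene.

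The genes described here were all rows that the deposited table types as a known long noncoding RNA gene and that had a mean of at least 10 counts over the 16 mice. The rule kept 243 of the 346 rows of that type, out of 26625 rows in the whole table. The members were chosen by this mean count, so their abundance is a description. The rows nearest to the limit were Gm15564 and Gm29595 inside it, each with a mean of 10 counts, and Gm13375 and Gm10941 outside it, each with 9.69. Of the members, 176 carried an Ensembl name and 67 carried only a NONCODE identifier, which the files do not pair with symbols.

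The mice were male C57BL/6 animals aged 8 to 10 weeks that received virus in the medial prefrontal cortex (mPFC) of both hemispheres. The knockdown virus carried an shRNA against Kdm7a, which encodes a histone lysine demethylase, and the control virus carried a nontargeting shRNA. Both drove the shRNA from a U6 promoter and EGFP from a CMV promoter, neither of which is limited to a cell type. Which cells carried the virus was not measured in these libraries. The conditioned place preference protocol lasted 10 days, either with morphine at 10 mg/kg alternating with saline or with saline alone, and mPFC tissue came from day 17, after 7 days of withdrawal. The groups were Ctrl + Saline (n = 3), Ctrl + Morphine (n = 4), and with the knockdown virus Kdm7a-shRNA + Saline (n = 5) and the 4 mice of Kdm7a-shRNA + Morphine. Full-length cDNA was sequenced on Nanopore flow cells, and 1 library stood for 1 mouse.

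Library totals lay between 6596991 and 12418112 counts. Levels are given as normalized CPM, the share of reads per 1000000 after scaling by TMM (trimmed mean of M values), not divided by transcript length. A gene passed when its adjusted p in edgeR's quasi-likelihood F test, over 18826 tested genes, lay below 0.05 and it changed by 1.5 times or more. Kdm7a itself ranged from 9.08 to 9.78 normalized CPM in Ctrl + Saline and from 4.92 to 6.07 in Kdm7a-shRNA + Saline, and it passed (log2 fold change -0.76 ± 0.20 SE, adjusted p = 0.0153). Under morphine it ranged from 6.19 to 8.89 in controls and from 3.01 to 6.28 with the knockdown, so the groups overlapped and the difference did not pass (-0.67 ± 0.21, adjusted p = 0.0506). Neuron markers were present at a summed 1466 to 2633 normalized CPM, and those of cortical excitatory neurons at 283 to 639. Markers of striatal projection neurons summed to 8.25 to 25.9 in every mouse. Marker sums of several other cell types reached higher values in knockdown mice, but the ranges overlapped between the viruses and the sums were not tested. The 4 microglia markers summed to 200 to 309 in control mice and to 258 to 904 in knockdown mice, and 3 of 4 passed as higher under saline and 1 of 4 under morphine. The 4 endothelial markers summed to 121 to 161 in controls and 147 to 266 with the knockdown, with 3 of 4 and 1 of 4 higher. The 4 astrocyte markers summed to 172 to 276 in controls and 233 to 436 with the knockdown, and 1 of 4, Aldh1l1, passed as higher under saline and none under morphine, where 4 of 4 had values above 0 (median log2 fold change 0.67). The 4 cortical excitatory markers had values below 0 under morphine (median -0.39), and none passed. The 4 oligodendrocyte markers summed to 6531 to 12103 in controls and 7816 to 18672 with the knockdown, and none passed. No listed marker was at 0 in every mouse. The part of cell makeup in the results was not tested, and in bulk tissue fewer cells of a type and less RNA per cell cannot be told apart.

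Because several of the changed genes are precursors of small RNAs, the mature microRNAs encoded within the 3 lowered precursors are shown first, with the seed (bases 2 to 8) in capitals. They come from RefSeq on GRCm38.p6, 5′ to 3′. The libraries held reads of at least 500 bases, so these mature RNAs were not measured, and 10 members held a microRNA hairpin on the same strand.
Meg3, miR-770-5p: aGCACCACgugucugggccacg
Meg3, miR-770-3p: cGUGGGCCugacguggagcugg
Rian, miR-341-5p: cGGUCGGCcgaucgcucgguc
Rian, miR-341-3p: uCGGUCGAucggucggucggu
Rian, miR-370-5p: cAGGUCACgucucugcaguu
Rian, miR-370-3p: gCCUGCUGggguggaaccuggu
Rian, miR-1188-5p: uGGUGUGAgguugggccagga
Rian, miR-1188-3p: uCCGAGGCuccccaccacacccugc
Gm3764, miR-9-5p: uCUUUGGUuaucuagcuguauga
Gm3764, miR-9-3p: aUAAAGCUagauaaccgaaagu
Gm3764, miR-3093-5p: cGCACCCCgcggagcucacacu
Gm3764, miR-3093-3p: uGUGGACAccgugggagguugg
No seed was shared among the 29 mature microRNAs found within members.

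The spliced transcripts of snoRNA hosts are known for starting with a run of pyrimidines. The next lines show 30 bases around the RefSeq start (10 before it, 20 from it on) for 7 hosts whose values are given below, with the longest run of C and T that touches the 5 bases on either side of the start in capitals.
1110038B12Rik, chr17:34952449-34952478, minus strand: gcacacgggTCTCTTTgtgcacccgcccac
2410006H16Rik, chr11:62602867-62602896, plus strand: cgccgTCTTTCTCTgcggccatcatgggat
Snhg1, chr19:8723477-8723506, plus strand: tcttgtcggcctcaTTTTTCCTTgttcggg
Snhg8, chr3:123508317-123508346, minus strand: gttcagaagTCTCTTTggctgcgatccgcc
Snhg12, chr4:132308668-132308697, plus strand: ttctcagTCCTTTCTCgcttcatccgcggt
Gas5, chr1:161035156-161035185, plus strand: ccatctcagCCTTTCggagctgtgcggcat
Zfas1, chr2:167062924-167062953, plus strand: tgcgCCCCgggcggccgcaggtctcggctg
A run of at least 8 pyrimidines was present in 6 of 19 windows of snoRNA hosts (31.6%) and in 9.72% of all 32851 windows. At the starts shown, 1110038B12Rik and Snhg8 had shorter runs of 7 bases, Gas5 of 6 and Zfas1 of 4. Gas5 has another start that is not shown (chr1:161034591-161034620), with a run of 3. Of the hosts with values below that are not shown, Snhg15 had a run of 4, Rian of 3 and Dancr of 1. Windows were found for 17 of the 19 hosts, and Epb41l4aos and Snhg6 had none.

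The 243 genes together took 0.674% to 0.852% of the reads of a mouse. Gas5, a snoRNA host named for its rise in growth-arrested cells, held 39.7% of their reads, and Gas5, Rian and Meg3 together held 67.8%. The summed share was 0.799% ± 0.056 (SD, n = 3) in Ctrl + Saline, 0.82% ± 0.029 (n = 4) in Ctrl + Morphine, 0.771% ± 0.04 (n = 5) in Kdm7a-shRNA + Saline and 0.736% ± 0.057 (n = 4) in Kdm7a-shRNA + Morphine, and the groups overlapped. Without Gas5 they did not overlap between viruses: the other 242 genes held 0.476% to 0.585% of reads in the 7 control mice and 0.367% to 0.457% in the 9 knockdown mice. No test was run on these shares. Rian and Meg3 were the most read of the 242 and were not taken out. The lower share therefore does not show a fall across the 242 genes. With the knockdown, the median log2 fold change of all 243 members lay above 0, at 0.26 under saline and 0.24 under morphine.

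**Figure D1:**
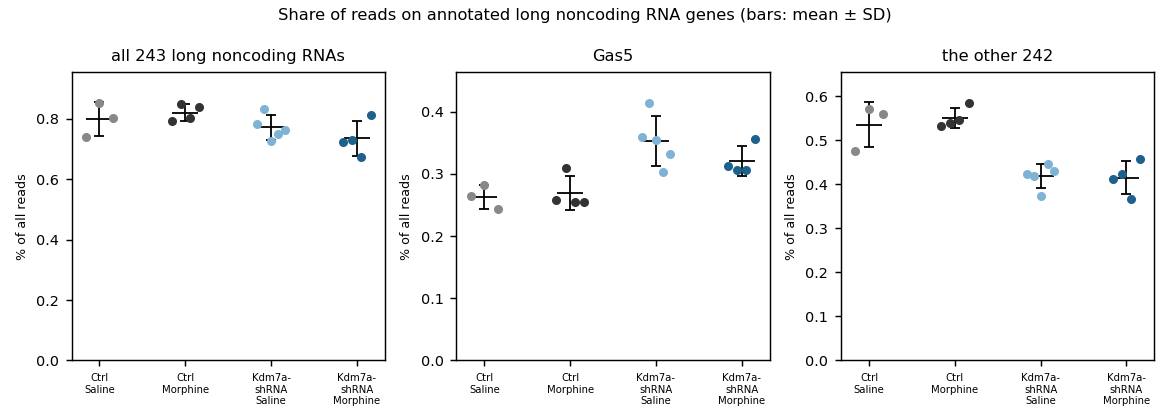
Percent of all reads on the 243 genes, on Gas5 and on the other 242 (vertical axes, from 0), 1 point per mouse, with the mean and SD of each group as bars. The knockdown mice sit between 0.367% and 0.457% in the right panel, which includes Rian and Meg3, all below the control mice at 0.476% to 0.585%.

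Of the members with a place in the GENCODE vM21 annotation, 70 overlapped a coding gene on the other strand only, 35 started within 1000 bases of a divergent coding gene, 62 had no overlap and 8 overlapped a coding gene on the same strand. Whether the authors' counting used strand is not given in the sources used here, so reads of the overlapping genes and of their coding partners cannot be told apart. Low counts were common: 116 members had a mean of 10 to 30 counts, and the median standard error of their log2 fold change under saline was 0.37, against 0.13 for the 6 members with at least 1000 counts. Small changes were therefore detectable mainly in the abundant RNAs.

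The knockdown comparison under saline asked which RNAs differ between the viruses without morphine. Under saline 38 members passed as higher and 9 as lower with the knockdown. Beside these, 7.43% of all tested genes were higher and 9.31% lower, and among annotated genes alone 9.12% and 2.98%, beside 15.6% and 3.7% of members. The members' median log2 fold change was 0.26, beside 0.01 for all tested genes and 0.10 for the other annotated genes. Its size depended on the scaling. By library size alone it was 0.12 for the members and -0.12 for all tested genes. Leaving out Ctrl + Saline replicate 3 left 25 members that passed and leaving out replicate 2 left 31. With at least 10 counts required in every mouse, 29 passed.

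Under morphine, where the comparison asked the same of mice in withdrawal, 16 members passed as higher and 6 as lower, 6.58% and 2.47% of members. The shares over all tested genes were 2.86% and 4.83%, and over annotated genes 3.43% and 1.29%. The median log2 fold change of the members was 0.24, beside -0.0045 for all tested genes and 0.04 for the other annotated genes. By library size alone the medians were 0.13 for the members and -0.11 for all tested genes. The count rested on single mice: it was 10 without Ctrl + Morphine replicate 4, 12 without Kdm7a-shRNA + Morphine replicate 3 and 35 without Kdm7a-shRNA + Morphine replicate 4. With at least 10 counts in every mouse, 13 passed. Among the members, 14 passed as higher in both comparisons, 3 as lower in both and 1 in opposite directions, and 192 passed in neither. The members higher in both made up 5.76%, beside 1.65% of all tested genes and 2.01% of annotated genes, and those lower in both made up 1.23%, beside 3.9% and 0.547%. The 2 comparisons share no mice.

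**Figure D2:**
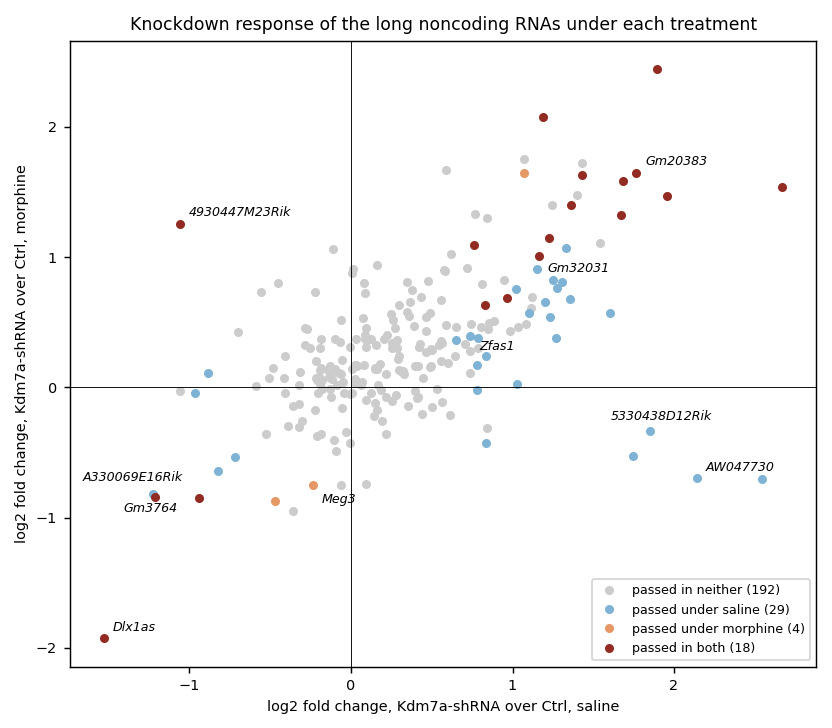
Log2 fold change of Kdm7a-shRNA over Ctrl under saline (horizontal) and under morphine (vertical), 1 point per long noncoding RNA, colored by where it passed. Dlx1as, Gm3764 and A330069E16Rik lie at the lower left, 4930447M23Rik alone among the 18 that passed in both lies at the upper left, and 1 member read almost only in 1 mouse, at -8.12 under morphine, is left off.

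Of the snoRNA hosts, 5 rose with the knockdown under saline and 2 under morphine. Of all members, 15.6% and 6.58% passed as higher, beside 9.12% and 3.43% of annotated genes. The shares over all tested genes were 7.43% and 2.86%. By the annotation, 19 members held a snoRNA gene on their own strand. Under saline 1 of them passed as lower and the median log2 fold change was 0.49, and under morphine none passed as lower and the median was 0.36. Values above 0 were found in 18 of the 19 under saline, where 165 of all 243 members were above 0, and in 15 of the 19 under morphine, where 180 of 243 were. Of the 14 members on a list of hosts by name, 14 of 14 had a log2 fold change above 0 under saline and 12 of 14 under morphine, but only 3 and 0 passed. This list was drawn up with earlier results of these data known.

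The 2 hosts that passed in both comparisons are known only by clone names. 1110038B12Rik (chr17:34950238-34952471, minus strand), with 2 snoRNA genes inside, had 29.6, 36.7 and 26.9 normalized CPM in the Ctrl + Saline mice and 51.0, 72.1, 69.2, 51.6 and 60.4 in Kdm7a-shRNA + Saline. Every knockdown mouse was above every control mouse, and the gene rose by 0.97 on the log2 scale (SE 0.16, adjusted p = 0.000908). Under morphine it had 35.7, 37.6, 29.3 and 32.2 in controls and 51.0, 51.6, 66.2 and 48.2 with the knockdown, again without overlap (log2 fold change 0.69 ± 0.15, adjusted p = 0.0106). Without Kdm7a-shRNA + Morphine replicate 3, or scaled by library size alone, this value was 0.58, just under the fold limit.

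2410006H16Rik (chr11:62602877-62604807, plus strand), with 3 snoRNA genes inside, stood at 43.6, 43.9 and 47.3 in Ctrl + Saline and at 70.7, 94.4, 92.2, 58.6 and 83.4 in Kdm7a-shRNA + Saline. It rose without overlap (0.83 ± 0.16, adjusted p = 0.00264). Under morphine its levels were 45.5, 42.9, 40.3 and 42.2 in controls and 55.2, 57.0, 83.7 and 68.3 with the knockdown (0.63 ± 0.15, adjusted p = 0.0178). The morphine call was lost in 3 of the 8 fits that left out a mouse: without Ctrl + Morphine replicate 3 (0.60, adjusted p = 0.0553), without Ctrl + Morphine replicate 4 (0.62, 0.057) and without Kdm7a-shRNA + Morphine replicate 3 (0.49, 0.0734). It was also lost by the fold limit when scaled by library size alone (0.52) or fitted on annotated genes alone (0.58).

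Zfas1 (chr2:167062934-167065862), a host of 3 snoRNAs that starts opposite the coding gene Znfx1, stood at 132, 118 and 97.9 in Ctrl + Saline. With the knockdown under saline it stood at 188, 222, 208, 160 and 193, above every control, and it rose (0.74 ± 0.15, adjusted p = 0.00279). Under morphine the groups overlapped, at 107, 152, 129 and 111 in controls and 164, 137, 179 and 176 with the knockdown (0.40 ± 0.14, adjusted p = 0.0776). Znfx1, which encodes a helicase-like RNA-binding protein, also passed as higher under saline (0.99 ± 0.27, adjusted p = 0.0182) and not under morphine (0.35 ± 0.26, adjusted p = 0.43).

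Epb41l4aos, which holds 1 snoRNA gene, had 16.1, 4.20 and 13.9 in Ctrl + Saline and 28.3, 27.4, 24.8, 18.3 and 22.0 in Kdm7a-shRNA + Saline, and it rose (1.10 ± 0.29, adjusted p = 0.0151). The control of replicate 2 was the lowest of all 16 mice. Under morphine its controls lay between 10.3 and 15.7 and its knockdown mice between 16.4 and 22.0, but the difference did not pass (0.57 ± 0.27, adjusted p = 0.2). Snhg15 passed under saline only (1.31 ± 0.37, adjusted p = 0.02), from 1.85 to 4.50 in controls and from 4.16 to 10.4 with the knockdown, so 1 knockdown mouse lay among the controls. The call was lost without Ctrl + Saline replicate 1 (1.25, adjusted p = 0.058) or replicate 2 (1.02, adjusted p = 0.112). Under morphine Snhg15 gave 0.81 ± 0.34 (adjusted p = 0.146), and the difference between the 2 effects did not pass either (interaction -0.50 ± 0.50, adjusted p = 0.791).

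Gas5, the most read member, had 2596, 2690 and 2281 normalized CPM in Ctrl + Saline and 3756, 4352, 3894, 3115 and 3429 in Kdm7a-shRNA + Saline. The groups did not overlap and the adjusted p was 0.00417, but the log2 fold change of 0.56 ± 0.12 was under the fold limit of 1.5. Under morphine the levels were 2461, 3029, 2416 and 2380 in controls and 3166, 3129, 3274 and 3596 with the knockdown, also apart (0.36 ± 0.11, adjusted p = 0.0535). A further 3 hosts had an adjusted p under 0.05 and a fold under 1.5 with saline: Snhg8 at 0.57 ± 0.14, Snhg6 at 0.53 ± 0.17 and Snhg12 at 0.49 ± 0.14. Snhg1, the host of 8 snoRNAs, did so under morphine (0.54 ± 0.16, adjusted p = 0.0392). Dancr, known as a suppressor of differentiation, gave 0.04 ± 0.22 under saline and 0.16 ± 0.21 under morphine.

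**Figure D3:**
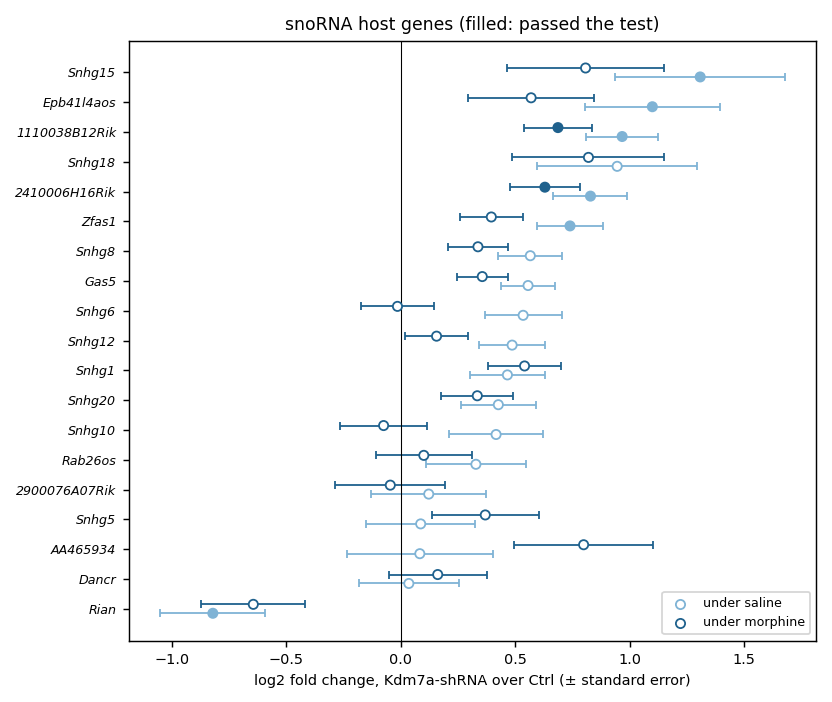
Log2 fold change of Kdm7a-shRNA over Ctrl with its standard error (horizontal) for the 19 members with a snoRNA gene inside, under saline (light) and morphine (dark), with filled points where the gene passed. Points lie right of 0 for 18 of 19 under saline and 15 of 19 under morphine, and Rian is the host that passed to the left.

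Meg3 and Rian, long noncoding RNAs of the Dlk1-Dio3 imprinted domain, each passed as lower in 1 of the 2 knockdown comparisons, Meg3 under morphine and Rian under saline. Both are made from the maternal chromosome, and Rian holds 13 snoRNA genes besides its microRNA hairpins. Meg3 (chr12:109541001-109571726) stood at 1221, 1331, 1318 and 1768 in Ctrl + Morphine and at 798, 930, 831 and 799 in Kdm7a-shRNA + Morphine. No mouse overlapped, and Meg3 fell by 0.75 on the log2 scale (SE 0.12, adjusted p = 0.00235). Under saline the levels were 959, 1016 and 1036 in controls and 999, 885, 710, 800 and 870 with the knockdown (-0.23 ± 0.12, adjusted p = 0.189). Among control mice every morphine value of Meg3 lay above every saline value, but that difference did not pass (0.49 ± 0.13, adjusted p = 0.16), nor did the interaction (-0.51 ± 0.17, adjusted p = 0.261).

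Rian (chr12:109603940-109661716) had 1332, 1988 and 1780 in Ctrl + Saline and 1018, 791, 723, 1366 and 910 in Kdm7a-shRNA + Saline. It passed as lower (-0.82 ± 0.23, adjusted p = 0.0186), with the knockdown mouse of replicate 4 just above the lowest control. The call was lost without Ctrl + Saline replicate 2 (-0.69, adjusted p = 0.0952) or replicate 3 (-0.81, adjusted p = 0.0708). Under morphine it had 1142, 1542, 1450 and 1338 in controls and 794, 871, 529 and 1306 with the knockdown, and did not pass (-0.64 ± 0.23, adjusted p = 0.081). Replicate 4 was again the highest knockdown mouse. The 2 Rian effects did not differ by the test (interaction 0.18 ± 0.33, adjusted p = 0.902). Jpx, an X-linked activator of Xist, ranged from 0.613 to 1.96 in all mice and did not pass.

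Of 12 tested coding genes that neighbour imprinted long noncoding RNAs, 4 passed as lower under saline, 3 under morphine and none as higher, with median log2 fold changes of 0.01 and -0.29. Among annotated genes 2.98% passed as lower under saline and 1.29% under morphine, and 9.12% and 3.43% as higher. Dlk1, a paternally expressed Notch-related ligand of the Meg3 domain, lay between 2.64 and 3.18 in Ctrl + Saline and between 0 and 0.804 in Kdm7a-shRNA + Saline (-2.72 ± 0.61, adjusted p = 0.00593). Under morphine it lay between 1.71 and 5.29 in controls and 0.0859 and 1.08 with the knockdown (-2.60 ± 0.62, adjusted p = 0.0161). Rtl1, from the same domain, passed under saline (-1.12 ± 0.33, adjusted p = 0.0247) and not under morphine (-0.93 ± 0.33, adjusted p = 0.0811). Cdkn1c, a maternally expressed cell cycle inhibitor, fell without overlap in both (-1.09 ± 0.18, adjusted p = 0.000917, and -1.29 ± 0.18, adjusted p = 0.00105). Igf2r, the receptor that clears insulin-like growth factor, also passed in both (-0.69 ± 0.23 and -0.79 ± 0.22).

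Dlx1as and Pantr1, RNAs of neural development loci, were lower with the knockdown. Dlx1as (chr2:71516454-71537891, minus strand) runs opposite Dlx1, which encodes a homeodomain factor of cortical interneurons. It had 28.7, 33.5 and 33.8 in Ctrl + Saline and 11.6, 10.8, 10.8, 11.6 and 10.6 in Kdm7a-shRNA + Saline, a narrow group well below the controls (-1.53 ± 0.27, adjusted p = 0.00124). Under morphine it had 31.9, 19.8, 30.1 and 26.2 in controls and 7.05, 11.99, 2.66 and 7.11 with the knockdown (-1.93 ± 0.28, adjusted p = 0.00113). Both calls held in 9 of 9 alternative fits and in 8 of 8 fits that left out a mouse. Dlx1 did not pass (0.31 ± 0.41 under saline, -0.56 ± 0.41 under morphine). Among GABAergic markers, Gad1 did not pass in either comparison (-0.19 ± 0.16 and 0.01 ± 0.16), while under saline Gad2 passed as lower (-0.63 ± 0.20) and Slc32a1 as higher (1.10 ± 0.22).

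Pantr1 (chr1:42590782-42694842), which starts divergently from the neural transcription factor gene Pou3f3, had 402, 464 and 469 in Ctrl + Saline and 272, 238, 259, 290 and 298 in Kdm7a-shRNA + Saline. It fell by 0.72 (SE 0.15, adjusted p = 0.00393). Under morphine the groups were also apart, at 327, 386, 441 and 422 against 310, 284, 181 and 312, with an adjusted p of 0.029 and a log2 fold change of -0.54 ± 0.15 that was under the fold limit. Pou3f3 did not pass in either comparison. Of the 7 members on the list of brain and neural development RNAs, 2 passed as lower under saline, 1 as lower under morphine and none as higher. Of all members, 3.7% passed as lower under saline and 2.47% under morphine. Miat, which localizes to nuclear bodies of neurons, gave -0.30 ± 0.24 and -0.26 ± 0.23, and Sox2ot, whose gene spans the stem cell factor gene Sox2, gave -0.59 ± 0.27 and 0.01 ± 0.26.

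**Figure D4:**
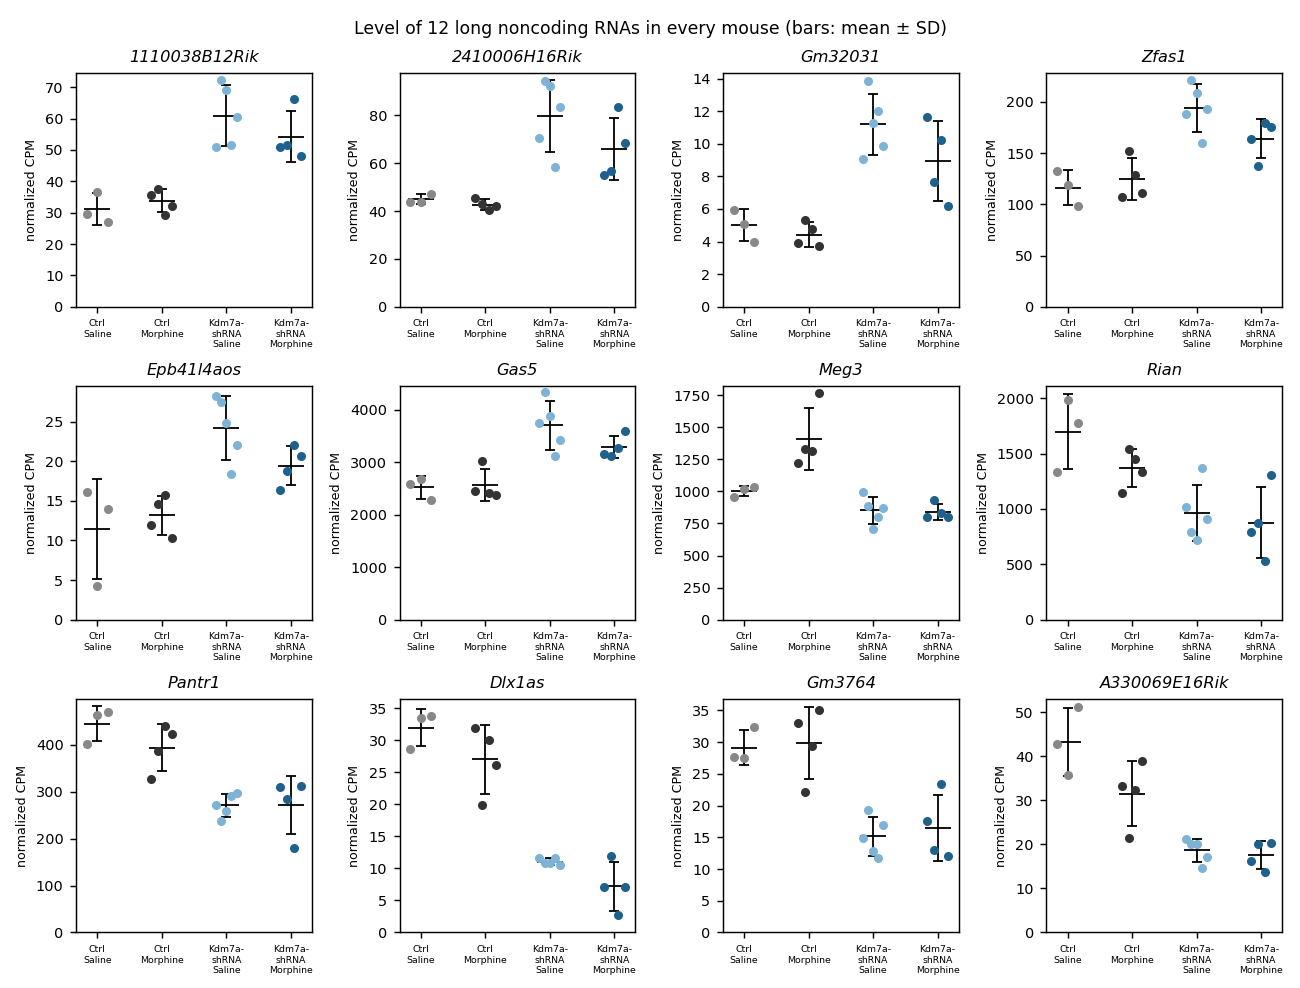
Normalized CPM (vertical axes, from 0) of 12 long noncoding RNAs, 1 point per mouse in 4 groups, with the mean and SD as bars. The knockdown mice lie above every control mouse for 1110038B12Rik, 2410006H16Rik, Gm32031, Epb41l4aos and Gas5, and below every control mouse for Dlx1as and Pantr1.

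Gm3764 (chr3:88206813-88229959, plus strand), the precursor that holds the miR-9-1 and miR-3093 hairpins, was lower in both comparisons. miR-9 is abundant in neural progenitors and neurons. Gm3764 had 27.6, 27.4 and 32.3 in Ctrl + Saline and 14.9, 19.4, 12.9, 11.7 and 16.98 in Kdm7a-shRNA + Saline, without overlap (-0.94 ± 0.21, adjusted p = 0.00577). Under morphine it had 33.0, 22.1, 29.5 and 35.0 in controls and 17.6, 12.9, 23.4 and 12.1 with the knockdown, where replicate 3 lay above the lowest control (-0.85 ± 0.21, adjusted p = 0.0182). Without Ctrl + Morphine replicate 4 the adjusted p was 0.0652 (-0.77), and in a fit of the compared groups alone it was 0.0539 (-0.86). No other precursor passed in both comparisons. 3110039I08Rik, which holds the miR-100, miR-125b-1 and let-7a-2 hairpins and is named after its values were seen, gave 0.88 under morphine and 0.00 under saline and did not pass. Mir22hg had 0.16 ± 0.26 under morphine and -0.13 ± 0.27 under saline, and Mir124-2hg had -0.37 ± 0.18 and -0.21 ± 0.18. Of the 10 members with a hairpin inside, 2 passed as lower in each comparison and none as higher. Among all members 3.7% passed as lower under saline and 2.47% under morphine, and 15.6% and 6.58% as higher.

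A330069E16Rik (chr2:91237146-91238352), which starts divergently from the DNA repair gene Ddb2, had the smallest p of all members under saline. It had 42.8, 35.7 and 51.1 in Ctrl + Saline and 21.3, 20.0, 20.0, 14.7 and 17.2 in Kdm7a-shRNA + Saline (-1.21 ± 0.19, adjusted p = 0.000609). Under morphine it had 33.3, 21.3, 32.3 and 38.9 in controls and 16.2, 20.1, 13.7 and 20.3 with the knockdown (-0.84 ± 0.19, adjusted p = 0.0118). The groups did not overlap in either, and without Ctrl + Morphine replicate 4 the morphine value was -0.73 with an adjusted p of 0.05001, just past the limit. Ddb2 did not pass (0.17 under saline, 0.25 under morphine).

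1700020I14Rik, known as Cyrano and for a long site that pairs with miR-7, was lower under saline, from 39.4, 37.5 and 55.5 to 15.5, 19.4, 23.5, 31.5 and 23.1 (-0.96 ± 0.23, adjusted p = 0.00742). Without Ctrl + Saline replicate 3 the adjusted p was 0.0596 (-0.79). Under morphine it was 16.9, 34.9, 29.5 and 28.2 in controls and 22.2, 29.3, 23.2 and 31.3 with the knockdown, with overlap (-0.05 ± 0.22). The interaction was 0.92 ± 0.32 with an adjusted p of 0.279. Gm39822 was also lower under saline (-1.22 ± 0.35, adjusted p = 0.0208), and lost the call without Ctrl + Saline replicate 3 (-1.04, adjusted p = 0.112).

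Where an antisense gene passed, its coding partner passed in 1 pair, under saline. Gm32031 (chr7:47008083-47009008), opposite the start of Spty2d1, had 5.95, 5.07 and 3.97 in Ctrl + Saline and 9.08, 13.8, 11.3, 12.04 and 9.85 in Kdm7a-shRNA + Saline, and it rose (1.16 ± 0.23, adjusted p = 0.0027). It rose under morphine too, from 3.89, 5.34, 4.75 and 3.74 to 11.6, 7.67, 10.2 and 6.17 (1.01 ± 0.22, adjusted p = 0.00997). Spty2d1 did not pass (0.30 and 0.26). Of 14 members whose symbol ends in os or as, 4 passed as higher and 1 as lower under saline, and 0 and 1 under morphine. The shares of all members were 15.6% higher and 3.7% lower under saline, and 6.58% and 2.47% under morphine.

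Lppos, opposite the adhesion gene Lpp, had 4.89, 2.73 and 5.43 in Ctrl + Saline and 9.31, 10.9, 15.2, 7.42 and 9.05 in Kdm7a-shRNA + Saline (1.27 ± 0.27, adjusted p = 0.00438), while Lpp was at 0.09. Taco1os rose from 2.38 to 3.04 in controls to 3.94 to 9.10 with the knockdown (1.02 ± 0.28, adjusted p = 0.0174; 0.0911 without Ctrl + Saline replicate 3), while Taco1, a mitochondrial translation factor, was at -0.40 and did not pass. Sp3os passed under saline (0.78 ± 0.24, adjusted p = 0.0308) with overlapping groups, at 54.7, 19.1 and 33.8 against 48.0 to 65.9, and lost the call in 6 of the 8 fits that left out a mouse, furthest without Ctrl + Saline replicate 2 (0.47, adjusted p = 0.148). It was also lost with library size scaling (adjusted p = 0.0566), in the compared groups alone (0.0619) and on annotated genes alone (0.065). Sp3, a transcription factor gene, was at -0.07. Over 74 tested pairs of a member and a coding gene on the other strand, the member passed in 12 under saline and the coding gene in 5, and both passed in 1, Zfas1 and Znfx1. Over 45 divergent pairs, 5 members and 5 coding genes passed under saline and in no pair both. Under saline 19.3% of all members, 12.1% of annotated genes and 16.7% of all tested genes passed in either direction. No test compared the pairs with these shares, so whether partners move together was not tested.

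Of the 67 members with only a NONCODE identifier, 13 passed as higher and 1 as lower under saline, and 8 and 2 under morphine. Over all members 15.6% passed as higher and 3.7% as lower under saline, and 6.58% and 2.47% under morphine. NONMMUG002386.2 was at 0.699, 0.534, 0.487 and 0.642 in Ctrl + Morphine and at 2.76, 4.44, 3.35 and 2.55 in Kdm7a-shRNA + Morphine, and it rose in both comparisons (2.44 ± 0.34, adjusted p = 0.000973, and 1.90 ± 0.34 under saline, adjusted p = 0.00159). NONMMUG010031.2 rose from 17.7, 16.01, 13.6 and 9.84 to 32.6, 30.1, 37.0 and 22.4 under morphine (1.10 ± 0.19, adjusted p = 0.00366). NONMMUG009975.3 fell under morphine, from 13.2, 12.8, 13.6 and 17.7 to 7.51, 8.63, 6.27 and 8.99 (-0.87 ± 0.17, adjusted p = 0.00573). NONMMUG035600.2 is called lower under morphine on 1 mouse alone: 99.1% of its 4911 reads came from Ctrl + Morphine replicate 1, at 486 normalized CPM, and 9 mice had no read.

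Protein partners were set beside all annotated genes, of which 4.71% passed in either direction under morphine and 12.1% under saline. No test compared the list with these shares, so its counts are a description. Of 41 coding genes for proteins that bind or process long noncoding RNAs, none passed under morphine, and 1 passed as higher and 1 as lower under saline. These were Pabpn1, a nuclear poly(A)-binding protein (0.76 ± 0.16, adjusted p = 0.00458), and Srsf1, a splicing factor (-0.68 ± 0.20, adjusted p = 0.0257).

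Morphine against saline addressed the effect of withdrawal within each virus. No member passed under either virus. Under the control virus 23 members had an unadjusted p under 0.05 in edgeR, 9.47% of members beside 11.7% of all tested genes, and DESeq2 called 0. Under the knockdown 16 did, 6.58% beside 7.02%, and DESeq2 called 1. Among all tested genes 0% and 0.00531% passed. After Meg3, the member with a symbol and the smallest p under the control virus was 5330438D12Rik, a transcript opposite Cnot2, at 0.793, 0.293 and 0.927 in Ctrl + Saline and 1.20, 2.13, 1.95 and 1.498 in Ctrl + Morphine (1.37 ± 0.40, adjusted p = 0.178).

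The interaction asked whether the knockdown effect differed between treatments. No member passed, beside 0.085% of all tested genes, 20 had an unadjusted p under 0.05 in edgeR (8.23% of members, 10.7% of all tested genes) and DESeq2 called 4. The following RNAs were chosen after their values were seen. 4930447M23Rik (chr2:19344317-19351050) passed in both knockdown comparisons in opposite directions. It had 17.8, 49.5 and 25.8 in Ctrl + Saline, 13.6, 12.6, 18.8, 19.1 and 10.95 in Kdm7a-shRNA + Saline (-1.06 ± 0.34, adjusted p = 0.036), 13.6, 24.6, 12.3 and 11.9 in Ctrl + Morphine, and 35.4, 33.9, 20.4 and 60.1 in Kdm7a-shRNA + Morphine (1.26 ± 0.34, adjusted p = 0.0273). The groups overlapped in both, and each call held in 3 of the 8 fits that left out a mouse. Without Ctrl + Saline replicate 2 the saline value was -0.54 (adjusted p = 0.34), and without Ctrl + Morphine replicate 4 the morphine value was 1.14 (adjusted p = 0.0945). On annotated genes alone the morphine value was 1.22 (adjusted p = 0.0512). The interaction was 2.31 ± 0.48 with an adjusted p of 0.0686.

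Another 3 of these RNAs rose with the knockdown under saline and had values below 0 under morphine. AW047730 (chr3:88200623-88203481), which lies upstream of Gm3764 on the same strand, had 2.11, 0.781 and 1.46 in Ctrl + Saline and 9.42, 5.18, 7.23, 3.37 and 6.23 in Kdm7a-shRNA + Saline (2.14 ± 0.58, adjusted p = 0.0156), and under morphine -0.70 ± 0.49. R74862, opposite the tetraspanin gene Cd81, gave 1.74 ± 0.44 (adjusted p = 0.0111) and -0.52 ± 0.40, and 5330438D12Rik gave 1.85 ± 0.38 (adjusted p = 0.00359) and -0.34 ± 0.33. Without Ctrl + Saline replicate 2 the saline adjusted p was 0.0825 for AW047730 and 0.0592 for R74862, and without replicate 3 it was 0.0664 for AW047730. The interactions of AW047730, R74862 and 5330438D12Rik had adjusted p values of 0.139, 0.128 and 0.0838.

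For 129 members RefSeq gives a promoter window, the 250 bases before and 50 from each start. The palindrome TGACGTCA, which the cAMP response element binding protein recognizes, was in 8 of 155 member windows (5.16%) and in 1.79% of all windows. It was also searched beside CACGTG (9.03% of member windows, 7.15% of all), CCAAT (38.7% and 37.4%), TAATTA (0.645% and 5.29%) and TATAAA (13.5% and 13.6%), on both strands, and the motifs do not contain each other, though 2 TATAAA hits on opposite strands overlap in the Meg3 window. The windows of 3 members that moved in different directions are shown, with every hit of these 5 motifs in capitals.
Meg3, chr12:109540746-109541045, plus strand: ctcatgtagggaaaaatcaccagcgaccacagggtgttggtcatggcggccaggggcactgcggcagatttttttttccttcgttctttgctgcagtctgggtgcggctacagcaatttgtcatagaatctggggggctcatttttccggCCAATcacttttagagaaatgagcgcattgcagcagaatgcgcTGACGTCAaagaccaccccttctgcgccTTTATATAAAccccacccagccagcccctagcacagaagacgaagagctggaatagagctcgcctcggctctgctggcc
Gm3764, chr3:88214232-88214531, plus strand: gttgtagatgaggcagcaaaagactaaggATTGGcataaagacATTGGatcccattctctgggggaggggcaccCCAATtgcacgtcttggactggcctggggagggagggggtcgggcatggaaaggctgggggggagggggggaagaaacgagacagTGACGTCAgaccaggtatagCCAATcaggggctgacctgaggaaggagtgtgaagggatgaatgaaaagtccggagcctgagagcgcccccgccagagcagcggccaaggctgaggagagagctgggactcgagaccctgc
Snhg15, chr11:6528711-6529010, minus strand: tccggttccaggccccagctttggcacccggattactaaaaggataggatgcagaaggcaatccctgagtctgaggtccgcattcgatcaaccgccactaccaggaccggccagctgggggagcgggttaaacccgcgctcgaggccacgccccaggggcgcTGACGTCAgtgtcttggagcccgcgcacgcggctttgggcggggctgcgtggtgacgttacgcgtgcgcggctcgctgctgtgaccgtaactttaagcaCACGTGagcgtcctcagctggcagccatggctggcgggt
TGACGTCA was within the windows of Meg3 and Gm3764, which were lower, of Snhg15 and C030037D09Rik, which rose under saline, of 4930447M23Rik, which passed both ways, and of Gas5 and 2 members that did not pass.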

How the data were processed

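The authors kept Nanopore cDNA reads of quality of at least 7 and at least 500 bases, removed ribosomal RNA, and aligned full-length reads to mm10 with minimap2, per the study's methods and the submitters' processing notes. The deposited table holds raw counts per gene and the same counts as CPM, per 1000000 of the column total. The deposited CPM equalled count over total within 4.99e-06. The authors' aligner settings for multi-mapped reads and the use of strand are not given in the sources used here. The submitters' notes name edgeR 3.8.6 for their own comparisons.

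Here the counts of all 16 mice were fitted in 1 model with edgeR 4.0.16 (R 4.3.3), TMM factors of 0.913 to 1.07, filterByExpr, quasi-likelihood F tests and Benjamini-Hochberg adjustment over 18826 genes. The TMM factors did not overlap between viruses, at 1.02 to 1.07 in control mice and 0.913 to 0.991 in knockdown mice. DESeq2 1.42.0 was an alternative. Tested on simulated counts for the knockdown under saline, the fit on 18826 genes recovered 60% of 200 changed genes, with 6 unchanged genes passing. Genes were placed with GENCODE vM21 (GRCm38), and sequences came from RefSeq GRCm38.p6. PCR reads are not independent molecules. The standard error of a log2 fold change was its size over the square root of the F statistic from the edgeR fit, so it includes the spread between mice.

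The members and lists were chosen with earlier results of these data known. Genes were named when they were on a role list, among the 8 higher or 8 lower members with the smallest p in a knockdown comparison, among the 10 most read, or antisense by symbol with their coding partner. The replicate numbers name different animals. Same-numbered Ctrl + Saline and Ctrl + Morphine mice deviated together (correlations of 0.11 to 0.207 over 3 pairs), and with the replicate number as a block 0 members passed there, as without it. Between Kdm7a-shRNA + Saline and Kdm7a-shRNA + Morphine the correlations ran from -0.0953 to 0.395 over 4 pairs. The highest were 0.395 in replicate 3 and 0.358 in replicate 4. P-values measure the spread between these mice. Alternatives were another scaling (RLE size factors, library size), other filters, the compared groups alone, annotated genes alone, the replicate block and each mouse left out.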

Additional observations from a re-analysis of the deposited data

Results flagged for a closer look

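In 10 of 168 groups of 4 or 5 mice checked over the named RNAs, 1 mouse lay far from the others by Dixon's ratio on log2 levels, and chance gives about 1 in 20. In Ctrl + Morphine, Gas5 was high in replicate 2 (3029 normalized CPM, the others 2380 to 2461), Snhg8 was high in replicate 3 (53.4, the others 48.5 to 49.2), Dancr was low in replicate 3 (5.23, the others 8.96 to 9.48) and Snhg10 was low in replicate 1 (4.09, the others 5.72 to 5.98). In Kdm7a-shRNA + Saline, 1810026B05Rik was low in replicate 1 (1.84, the others 3.94 to 4.62), Mir670hg was low in replicate 3 (1.30, the others 2.53 to 3.15) and Sp3os was low in replicate 4 (48.0, the others 62.3 to 65.9). In Kdm7a-shRNA + Morphine, Pantr1 was low in replicate 3 (181, the others 284 to 312). NONMMUG035600.2 was high in Ctrl + Morphine replicate 1 (486, the others 0 to 0.214) and had its only read of the group in Kdm7a-shRNA + Saline replicate 5 (0.101, the others 0).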

How the results depend on the processing

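Of 36 pairs of a named RNA and a knockdown comparison in which it passed, 28 passed under every alternative that kept all mice, 20 in every fit that left out a mouse, and none changed sign. Requiring at least 10 counts in every mouse, by construction over fewer genes, moved the counts from 22 to 13 under morphine and from 47 to 29 under saline. Leaving out 1 mouse gave 10 to 35 under morphine and 25 to 56 under saline. DESeq2 gave 26 and 48. Scaling by library size alone gave 13 higher and 8 lower under morphine and 31 and 11 under saline, and moved the median of all genes by -0.11 and -0.13. Using annotated genes only gave 10 higher and 6 lower, and 27 and 9. The members' median log2 fold change was then 0.20 under morphine and 0.18 under saline. For the knockdown comparisons the mice shared only a number: the replicate block gave 23 under morphine and 49 under saline, of which 20 and 41 were the same genes, correlations of same-numbered mice ran from -0.0836 to 0.12 under saline and from -0.0398 to 0.082 under morphine, and 8 of 16 mice correlated best with their own number. With the block, 3 named calls were lost: Gm39822 (-1.23, adjusted p = 0.0557) and 4930447M23Rik (-0.95, 0.0607) under saline and NONMMUG035600.2 (-6.88, 0.0753) under morphine. No member passed for morphine under the control virus except 1 without Ctrl + Saline replicate 1 (range 0 to 1), and none under the knockdown except 1 with DESeq2 (0 to 0 with a mouse left out). The interaction gave 2 with no filter on low counts, 4 with DESeq2 and 0 to 5 with a mouse left out, 5 being without Kdm7a-shRNA + Morphine replicate 2. The cause of these changes was not tested. The mean summed share of 0.78% became 0.473% without Gas5 and 0.858% of annotated reads. Depth limited the 116 members with 10 to 30 counts.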
